A study of Mus musculus with 7 samples.

Results

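The genes described here are 7 genes of inherited cerebral cavernous malformation (CCM) and of other malformations or disease of small vessels: Krit1, Ccm2, Pdcd10, Heg1, Map3k3, Rasa1 and Foxc1. They were taken as the rows of the authors' deposited table whose gene symbol equals 1 of these names, and all 7 were found among 23358 rows. The table compares mouse brain cells of stage E14.5, on a C57Bl6 background, that are labelled endothelial. The groups are controls (3 libraries) and cells lacking Tgfbr2 (4 libraries), the type II receptor for transforming growth factor β (TGF-β). In both groups the cells were sorted by flow cytometry for TdTomato, the red fluorescent product of the Ai14 reporter allele, which Cre recombination switches on. Each library came from 2000 to 5000 cells and was read as single ends of 50 bases. The sources used here do not name the Cre driver, the alleles the controls carry or the number of embryos behind each library.

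The products of the 3 CCM genes, KRIT1, CCM2 and PDCD10, form a complex in endothelial cells. The transmembrane protein HEG1 binds KRIT1 at cell junctions, and CCM2 binds the kinase MEKK3, which Map3k3 encodes. The complex restrains signalling from MEKK3 through the kinase ERK5 to the transcription factors KLF2 and KLF4, and its loss gives dilated, leaky vessels in the brain. RASA1 is a RAS GTPase-activating protein that acts downstream of the receptor EPHB4 and is mutated in capillary and arteriovenous malformations. FOXC1 is a forkhead transcription factor of mesenchyme, mural cells and endothelium, and its variants cause disease of small cerebral vessels.

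Heg1 and Foxc1 rose in the Tgfbr2-deficient group and Ccm2 fell, so stretches before the starts of these 3 genes are shown. They come from RefSeq, build GRCm38.p6 (the assembly of mm10), which holds an entry for all 7 genes. Each run is written 5′ to 3′ on the strand of the gene, which is plus for all 3. It begins 250 bases before the RefSeq start and ends before the first base that RefSeq or GENCODE M21 annotates as transcribed. Capitals mark GGAAGT or its reverse complement ACTTCC, letters of the ETS factor family, and CACCC or its reverse complement GGGTG, letters of the KLF family. The Heg1 run lies at chr16:33684216-33684369, the Foxc1 run at chr13:31806396-31806632 and the Ccm2 run at chr11:6546637-6546886.
Heg1: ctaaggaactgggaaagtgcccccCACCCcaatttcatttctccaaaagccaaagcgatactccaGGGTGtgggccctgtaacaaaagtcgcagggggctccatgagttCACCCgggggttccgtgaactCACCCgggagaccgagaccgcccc
Foxc1: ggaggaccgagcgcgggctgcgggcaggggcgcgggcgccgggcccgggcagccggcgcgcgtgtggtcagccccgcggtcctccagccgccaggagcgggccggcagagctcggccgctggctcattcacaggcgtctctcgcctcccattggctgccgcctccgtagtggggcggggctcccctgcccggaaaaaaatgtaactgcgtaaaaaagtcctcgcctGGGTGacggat
Ccm2: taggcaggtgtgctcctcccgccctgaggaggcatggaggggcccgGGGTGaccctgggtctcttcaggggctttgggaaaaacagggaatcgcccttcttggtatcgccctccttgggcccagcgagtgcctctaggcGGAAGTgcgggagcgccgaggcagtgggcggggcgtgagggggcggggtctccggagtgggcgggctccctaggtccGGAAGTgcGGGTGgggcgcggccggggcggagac

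Over the full 250 bases before the RefSeq start, Heg1 held CACCC or GGGTG at 5 places, Foxc1 at 1 and Ccm2 at 2. These letters occur in 52.0% of 32851 such windows, and in 57.8% of the 9819 tested genes with a window. GGAAGT or ACTTCC occurred at 2 places in the Ccm2 window and at 0 in those of Heg1, Foxc1 and Rasa1. The windows of Pdcd10 and Map3k3 each held this motif at 1 place, and that of Krit1 at 1 place before 1 of its 2 RefSeq starts. The motif is found in 19.7% of all windows and in 23.1% of the tested genes with a window. A second RefSeq start of Ccm2 held neither motif. No overlap between the motifs occurred in these windows. The motifs were chosen with the sequences in view, both strands were searched, and a match is only a run of letters. The GC content was 68.0% for Heg1, 70.8% for Foxc1 and 71.2% for Ccm2, beside a median of 60.0% over 9819 tested genes with a window.

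Expression is given in FPKM, a fragment count divided by transcript length and library size. There is 1 value per gene and group, made by the authors from the libraries of that group. Values of single libraries were not analysed here, so neither the depth nor the variation among libraries is known. The error measure is the q-value in the authors' deposited table, from their Cuffdiff test, with a threshold of 0.05. Nothing in the labels says that libraries came from separate embryos. The q-values therefore cover only how these libraries vary, which may be technical variation. A gene counts as tested where the authors ran the test and it reached 1 FPKM in at least 1 group. Where a minimum of 5 FPKM is named below, it too had to be reached in only 1 group. All 7 genes were tested. A log2 fold here compares FPKM + 1 in Tgfbr2-deficient cells with FPKM + 1 in controls unless said otherwise, so that changes of genes near 1 FPKM appear smaller than they are.

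Of the 7 genes, 2 were higher, 1 was lower and 4 did not pass the threshold. Among all 13356 tested genes, 23.9% were higher and 14.7% were lower, so these shares of the 7 genes, 28.6% and 14.3%, were near the background and are not a result about the genes as a group. Their median log2 fold was −0.36, beside −0.08 over all tested genes. The genes that rose were the 2 least abundant in the control group, and the gene that fell was the most abundant. When the tested genes were ranked by mean abundance and cut into 10 bins, the folds of the 4 genes that did not pass lay between percentiles 42.9 and 54.3 of their bins.

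**Figure D1:**
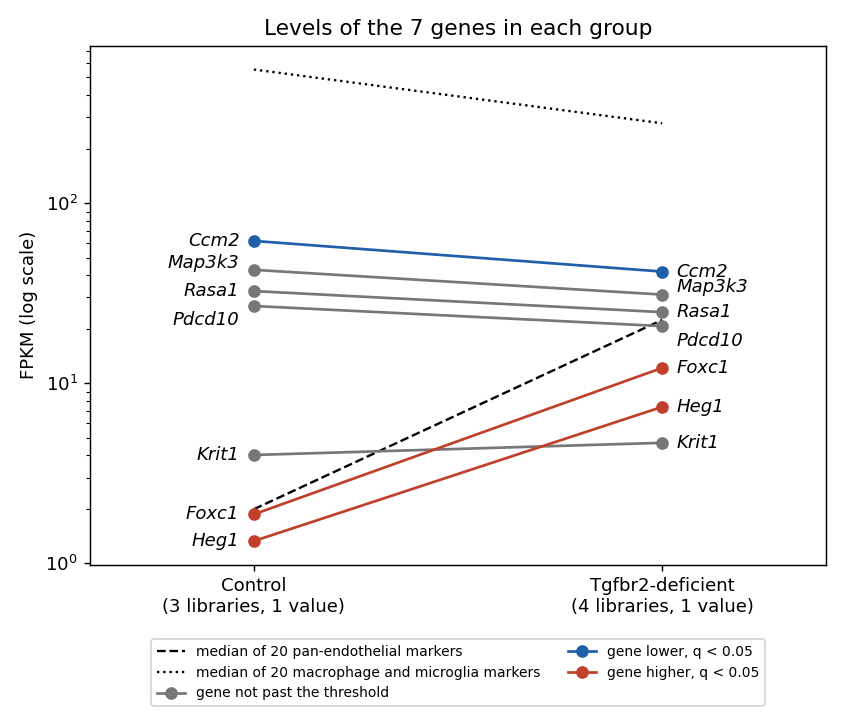
FPKM (log axis) of the 7 genes in the control and the Tgfbr2-deficient group, 1 value per group and no error bars, with the medians of 20 pan-endothelial and 20 macrophage markers as broken lines. Ccm2 is the most abundant of the 7 in both groups, at 61.8 and 41.8 FPKM, while Heg1 and Foxc1 climb from under 2 FPKM.

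The sorted cells were labelled endothelial, and endothelial markers were present but low in the control group. All 20 pan-endothelial markers were above 0 FPKM in both groups, but 8 were under 1 FPKM in controls and 0 in Tgfbr2-deficient cells. Their summed level was 95.0 FPKM in controls and 540 FPKM in Tgfbr2-deficient cells, and 19 of the 20 rose. The 20 macrophage and microglia markers summed to 16870 and 7849 FPKM, with 18 of 20 lower. The 15 pericyte and smooth muscle markers summed to 23.2 and 160 FPKM, with 9 of 13 tested higher, and the 15 fibroblast and meningeal markers to 160 and 1233 FPKM, with all 15 higher. The 10 mast cell and platelet markers summed to 16.0 and 486 FPKM, with all 10 higher and a median log2 fold of 4.57, the largest of the cell type lists. The erythroid markers summed to 3820 and 24108 FPKM, with 7 of 9 tested higher and 1 lower, and the 14 neuron and neural progenitor markers to 307 and 576 FPKM, with 13 higher. Tgfbr2 stood at 91.1 and 65.4 FPKM, with q = 0.0953 in the authors' deposited table, which did not pass. Fewer cells of a type and less RNA per cell cannot be told apart in these pools, and the part of these markers in the results below was not tested.

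Heg1, the transmembrane partner of KRIT1, rose from 1.33 FPKM in controls to 7.40 FPKM in Tgfbr2-deficient cells, a ratio of 5.56. Its log2 fold was 1.85, and 2.48 with no pseudocount, with q = 0.00029 in the authors' deposited table. That q is the smallest in the table and was shared by 2357 tested genes (17.6%). Among the tested genes Heg1 moved from percentile 16.0 of level in the control group to percentile 41.0. In the abundance bin of Heg1, 533 of 1335 genes (39.9%) were higher, and the fold of Heg1 lay at percentile 92.4 of the bin. The pan-endothelial markers rose by a median log2 fold of 2.74 in the same groups, 0.89 above that of Heg1. In FPKM with nothing added, Heg1 was at 0.665 times the median pan-endothelial level in the control group and at 0.329 times in the Tgfbr2-deficient group. The order of Heg1 and Krit1 differed between the groups: Heg1 was at 0.333 times the level of Krit1 in the control group and at 1.58 times in the Tgfbr2-deficient group, a difference that was not tested.

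Krit1, the founding gene of the family, whose product joins HEG1 to CCM2, was at 4.0 FPKM in controls and at 4.67 FPKM in Tgfbr2-deficient cells. Its log2 fold of 0.18 did not pass, with q = 0.479 in the authors' deposited table. It was the least abundant of the 3 CCM genes in both groups. Ccm2, the scaffold that holds KRIT1, PDCD10 and MEKK3, fell from 61.8 to 41.8 FPKM, with q = 0.0270 in the authors' deposited table. Its fold was −0.56 on the log2 scale, but −0.0083 once folds were centred on ribosomal protein genes, whose median fell by 0.55. The call is lost at q under 0.01 and where a ratio of at least 2-fold is asked for. In the abundance bin of Ccm2, 451 of 1336 genes (33.8%) were lower, and the fold of Ccm2 lay at percentile 31.6 of the bin. Pdcd10, which binds CCM2 and kinases of the germinal centre group, stood at 26.9 and 20.8 FPKM. Its log2 fold of −0.36 did not pass, with q = 0.179 in the authors' deposited table.

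Ratios between the CCM transcripts differed in size between the groups but not in order. Ccm2 was at 15.5 times the level of Krit1 in the control group and at 8.94 times in the Tgfbr2-deficient group. Pdcd10 was at 6.72 and 4.45 times the level of Krit1, and Ccm2 at 2.30 and 2.01 times that of Pdcd10. All are ratios of 1 group value to another, so they have no error and no test. In the control group Ccm2 was at 30.9 times the median of the pan-endothelial markers, and in the Tgfbr2-deficient group at 1.85 times. For Pdcd10 the same ratio was 13.5 and 0.923, and for Krit1 2.0 and 0.208.

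Among the other proteins of the complex, Ccm2l and Stk26 were higher. Ccm2l, an endothelial paralogue of Ccm2, rose from 0.433 to 4.35 FPKM, a log2 fold of 1.90 with q = 0.00029 in the authors' deposited table. Ccm2 itself was at 143 times the level of Ccm2l in the control group and at 9.61 times in the Tgfbr2-deficient group. Stk26, a germinal centre kinase that binds PDCD10, rose from 1.24 to 2.35 FPKM (q = 0.0386), while its relatives Stk24, at 9.53 and 7.63 FPKM, and Stk25, at 33.5 and 38.4 FPKM, did not pass. Itgb1bp1, which encodes the KRIT1-binding protein ICAP1, stood at 16.8 and 10.3 FPKM and did not pass (q = 0.156). Of the 8 genes of the complex and its kinases, Krit1, Ccm2 and Pdcd10 included, 2 were higher (25.0%) and 1 was lower (12.5%), with a median log2 fold of −0.05. These shares were near those of all tested genes, 23.9% and 14.7%. At a minimum of 5 FPKM, 0 of the higher genes were left.

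HEG1 and KRIT1 act at junctions with the small GTPase RAP1, and genes of this arm were mostly higher. Rasip1, an endothelial RAP1 effector that binds HEG1, rose from 2.52 to 37.6 FPKM, a log2 fold of 3.46. Arhgap29, a GTPase-activating protein that works with RASIP1, rose from 2.83 to 15.8 FPKM, and Afdn, the junction protein afadin, from 1.36 to 6.57 FPKM. Each had q = 0.00029 in the authors' deposited table. Of 14 genes, 8 rose (57.1%, beside 23.9% of all tested genes) and 2 fell (14.3%, beside 14.7%), with a median log2 fold of 0.88. At a minimum of 5 FPKM 4 rose. All 4 were under 5 FPKM in controls and passed this minimum only through the Tgfbr2-deficient group. The genes that fell were Rap1b, from 339 to 205 FPKM, and Sipa1, a RAP1 GTPase-activating protein, from 145 to 81.0 FPKM. When folds are centred on ribosomal protein genes that of Rap1b becomes −0.18 and that of Sipa1 −0.29. When they are centred on the pan-endothelial markers the fold of Rasip1 stays above 0, at 0.72, while those of Arhgap29 and Afdn become −0.60 and −1.05.

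**Figure D2:**
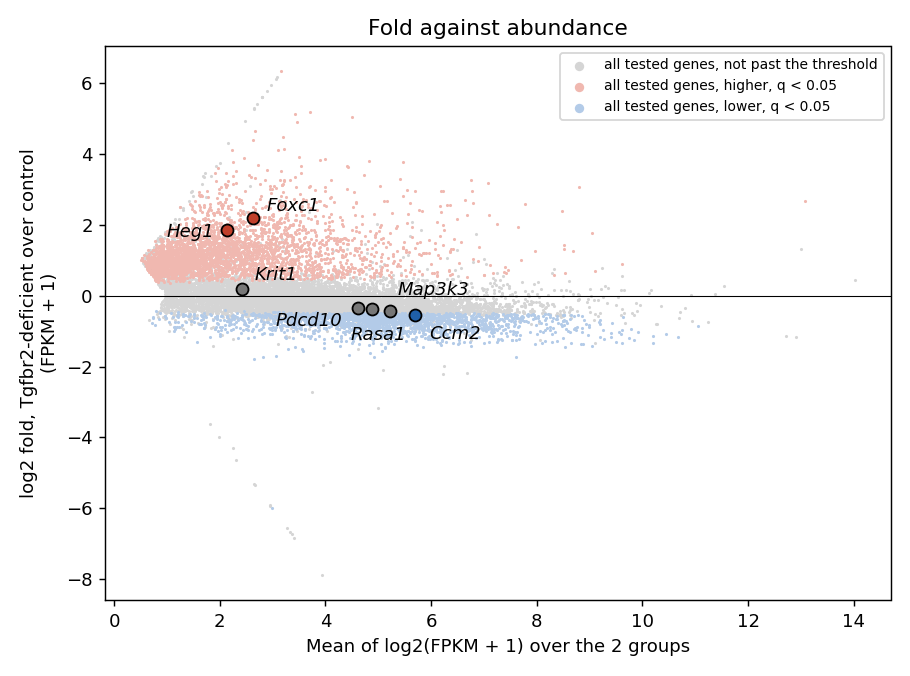
Log2 fold (FPKM + 1, Tgfbr2-deficient over control) against the mean log2(FPKM + 1) of the 2 groups for all 13356 tested genes, coloured by the authors' q-value, with the 7 genes as large points. Heg1 and Foxc1 lie among the higher genes on the left, at folds of 1.85 and 2.20, and the other 5 lie between −0.56 and 0.18.

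Map3k3, which encodes the kinase MEKK3 that CCM2 binds, was at 42.7 FPKM in controls and at 31.1 FPKM in Tgfbr2-deficient cells. Its log2 fold of −0.44 did not pass, with p = 0.0314 and q = 0.0739 in the authors' deposited table. Map3k3 was at 22.8 times the level of its close relative Map3k2 in the control group and at 16.3 times in the Tgfbr2-deficient group. The kinases below it did not pass either: Map2k5 stood at 17.0 and 15.5 FPKM (q = 0.678) and Mapk7, which encodes ERK5, at 32.9 and 28.7 FPKM (q = 0.480), in the authors' deposited table.

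At the end of this pathway Klf2 and Klf4 moved in opposite directions. Klf2 fell from 105 to 54.6 FPKM, with q = 0.000787, and Klf4 rose from 2.20 to 4.99 FPKM, with q = 0.00165, both in the authors' deposited table. Both directions held when folds were centred on ribosomal protein genes, at −0.38 for Klf2 and 1.45 for Klf4, and Klf4 was at −1.83 when they were centred on the pan-endothelial markers. Mef2c, a transcription factor that ERK5 phosphorylates, fell from 47.7 to 23.4 FPKM (q = 0.00029). Mef2c and Klf2 are also expressed in macrophages, whose 20 markers summed to 16870 and 7849 FPKM. Of the 9 genes from Map3k3 to the KLF factors, 1 rose (11.1%) and 2 fell (22.2%), with a median log2 fold of −0.16. Among all tested genes 23.9% were higher and 14.7% lower.

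Genes that lie downstream of the CCM proteins in endothelium were mostly higher. The 12 genes include Klf2 and Klf4, proteases of versican, anticoagulant receptors and other genes reported to change on loss of the complex, not all in the same direction. Thbs1, which encodes the anti-angiogenic protein thrombospondin 1, rose from 10.3 to 94.6 FPKM. Plvap, the protein of endothelial diaphragms, rose from 3.44 to 36.4 FPKM, and Nos3, the endothelial nitric oxide synthase, from 0.673 to 9.13 FPKM. Each of these 3 had q = 0.00029 in the authors' deposited table. The list counted 10 higher genes (83.3%, beside 23.9% of all tested genes) and 1 lower gene, Klf2 (8.33%, beside 14.7%). Its median log2 fold was 1.43. Most of the 10 had a mean of the 2 groups under 5 FPKM, where 44.8% of all tested genes were higher. At a minimum of 5 FPKM 6 of 8 were higher. All of these 6 but Thbs1 passed this minimum only through the Tgfbr2-deficient group. In the same groups the log2 medians were 2.74 for pan-endothelial and 2.62 for fibroblast and meningeal markers.

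Toll-like receptor 4 (TLR4) and its adaptors, which feed signals into MEKK3 in endothelium and are abundant in macrophages, were lower. Myd88, the central adaptor, fell from 91.4 to 41.4 FPKM, and Cd14, a co-receptor, from 105 to 52.7 FPKM. Ly96, the co-receptor MD-2, fell from 32.2 FPKM by 1.10 on the log2 scale. Of 8 genes 7 fell (87.5%, beside 14.7% of all tested genes), and Traf6, at 7.55 and 7.28 FPKM, did not pass (q = 0.876 in the authors' deposited table). The list median was −0.84, beside −1.12 for the macrophage markers.

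Rasa1, the RAS GTPase-activating protein, was at 32.6 FPKM in controls and at 24.9 FPKM in Tgfbr2-deficient cells. Its log2 fold of −0.38 did not pass, with q = 0.140 in the authors' deposited table. Its upstream receptor and that receptor's ligand rose: Ephb4 from 2.65 to 21.7 FPKM and Efnb2 from 3.68 to 19.4 FPKM, both with q = 0.00029. Rasa1 was at 12.3 times the level of Ephb4 in the control group and at 1.15 times in the Tgfbr2-deficient group. Arhgap35, which encodes a GTPase-activating protein that binds RASA1, rose from 3.83 to 7.60 FPKM (q = 0.00029). The related GTPase-activating proteins Rasa2, at 2.88 and 3.05 FPKM, and Rasa3, at 45.8 and 34.1 FPKM, did not pass. Among the RAS proteins Hras fell from 53.8 to 32.1 FPKM (q = 0.00338), while Nras, at 35.2 and 26.8 FPKM, did not pass. Spred1, an inhibitor of RAS signalling, fell from 50.3 to 32.6 FPKM (q = 0.0136), and Map2k1, the kinase MEK1, from 76.0 to 51.8 FPKM (q = 0.0256). Of the 17 genes counted in this arm, 4 rose (23.5%) and 3 fell (17.6%), with a median log2 fold of −0.19. These shares were near the 23.9% and 14.7% of all tested genes.

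Foxc1 rose from 1.87 FPKM in controls to 12.2 FPKM in Tgfbr2-deficient cells, a ratio of 6.51 and the largest among the 7 genes. Its log2 fold was 2.20, and 2.70 with no pseudocount, with q = 0.00029 in the authors' deposited table. It moved from percentile 20.9 of level among tested genes to percentile 55.4. In the abundance bin of Foxc1, 392 of 1336 genes (29.3%) were higher, and the fold of Foxc1 lay at percentile 96.3 of the bin. The median log2 fold was 2.62 for the fibroblast and meningeal markers, 2.07 for the pericyte and smooth muscle markers and 2.74 for the pan-endothelial markers, all in the same groups. These 3 cell types can each express Foxc1, and their part in its rise was not tested.

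The listed forkhead genes near Foxc1 on chromosome 13 rose with it, and the listed genes of other families there, Gmds and Exoc2, did not pass. Other genes of the region were not examined. Foxf2, a forkhead factor of brain pericytes and endothelium that ends 175 kb upstream of Foxc1 in GENCODE M21, rose from 1.01 to 12.2 FPKM, and Foxq1, 246 kb upstream, from 0.761 to 6.71 FPKM. Gmds, an enzyme of GDP-fucose synthesis that lies 7.10 kb downstream on the other strand, stood at 10.7 and 9.83 FPKM. Exoc2, a subunit of the exocyst that lies 833 kb upstream, stood at 14.6 and 14.8 FPKM. Foxc2, the closest relative of Foxc1, lies on another chromosome and rose from 1.37 to 7.74 FPKM. Each forkhead gene had q = 0.00029 in the authors' deposited table. Foxc1 was at 1.86 times the level of Foxf2 in the control group and at 0.998 times in the Tgfbr2-deficient group, and at 1.37 and 1.57 times that of Foxc2.

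Foxc1 was 1 of 7 higher genes among 11 genes of small-vessel disease, of which 3 fell. The shares were 63.6% higher and 27.3% lower, beside 23.9% and 14.7% of all tested genes. Col4a1 and Col4a2, the chains of basement membrane collagen IV, rose from 11.0 to 164 FPKM and from 7.14 to 85.8 FPKM, both with q = 0.00029 in the authors' deposited table. Notch3, the receptor mutated in CADASIL, rose from 1.51 to 7.63 FPKM, and Htra1, a secreted protease mutated in CARASIL, from 1.69 to 9.98 FPKM. The genes that fell, Cst3, Ctsa and Trex1, are a protease inhibitor, a lysosomal protease and a nuclease that are abundant in macrophages. Cst3 fell from 1305 to 570 FPKM, Ctsa from 404 to 212 FPKM and Trex1 from 72.7 to 39.8 FPKM. The list median was 1.79, and 1.24 without Foxc1.

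Among 20 other genes of vascular malformation and lymphatic disease, 9 of 17 tested rose by the authors' Cuffdiff q-value (52.9%, beside 23.9% of all tested genes). Of the 17, 0 fell, beside 14.7% of all tested genes, also 0 at an unadjusted Cuffdiff p under 0.05. The median log2 fold of the list was 0.49. Many of those that rose encode receptors and transcription factors of endothelium, and Gata2 is also a factor of mast cells and megakaryocytes. The mast cell and platelet markers rose by a median log2 fold of 4.57 and the pan-endothelial markers by 2.74 in the same groups, and their part in these values was not tested. Gata2 rose from 1.61 to 29.2 FPKM, the factor Sox18 from 2.05 to 27.5 FPKM and Flt4, the receptor for VEGF-C, from 0.396 to 10.3 FPKM, each with q = 0.00029 in the authors' deposited table. Eng and Acvrl1, receptors mutated in hereditary haemorrhagic telangiectasia, rose from 11.1 to 32.8 FPKM (q = 0.00029) and from 11.1 to 16.9 FPKM (q = 0.0187). Of the broadly expressed signalling genes, Pik3ca, at 5.06 and 6.01 FPKM, and Gnaq, at 15.7 and 14.4 FPKM, did not pass. Gna11 rose from 10.4 to 14.9 FPKM (q = 0.0464 in the authors' deposited table).

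In these lists, as in the whole table, the direction of the calls differed with abundance. Of 98 tested pathway genes, 27 had a mean of the 2 groups under 5 FPKM, and of these 23 were higher and 0 lower, also 0 at an unadjusted Cuffdiff p under 0.05. The other 71 counted 19 higher and 18 lower. Among all tested genes with a mean under 5 FPKM 44.8% were higher and 2.93% lower, and among the remaining genes 13.5% and 20.6%. Setting the ribosomal protein median to 0 turns the list medians of the complex, the MEKK3 pathway and the RASA1 arm to 0.49, 0.39 and 0.35, and leaves that of the TLR4 list at −0.30. Setting the pan-endothelial median to 0 puts all 9 list medians below 0, between −3.58 and −0.73. In these folds, with 1 FPKM added, Rasip1, Thbs1, Plvap, Flt4, Sox18, Gata2, Col4a1 and Col4a2 were the only pathway genes above 0. Of the pathway genes 4, Plvap, Sox18, Tek and Eng, are themselves among the pan-endothelial markers, so their values under this scaling are partly set by it. Which genes lie above 0 under this scaling also depends on the added 1 FPKM. With nothing added, the ratios of Nos3 (13.56) and Tek (14.88), both below 0 here, were larger than those of Thbs1 (9.21) and Plvap (10.56).

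In control cells the order of level was Ccm2, Map3k3, Rasa1, Pdcd10, Krit1, Foxc1 and Heg1. In Tgfbr2-deficient cells the first 4 kept this order, followed by Foxc1, Heg1 and Krit1. With 1 value per group, it cannot be said which neighbours in this order differ beyond the spread between libraries. Ccm2, Map3k3, Rasa1 and Pdcd10 lay between percentiles 73.7 and 88.3 of the tested genes in the control group and between 70.7 and 85.8 in the Tgfbr2-deficient group. Setting the ribosomal protein median to 0 raises each log2 fold by 0.55 and turns those of Pdcd10, Map3k3 and Rasa1 to 0.19, 0.10 and 0.17. Centring on the pan-endothelial markers takes 2.74 from every fold, which leaves Heg1 at −0.89, Foxc1 at −0.54 and the other 5 genes between −3.29 and −2.55. The size of this shift depends on the added 1 FPKM, since 8 of the 20 markers were under 1 FPKM in controls and their folds are shrunk by it.

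**Figure D3:**
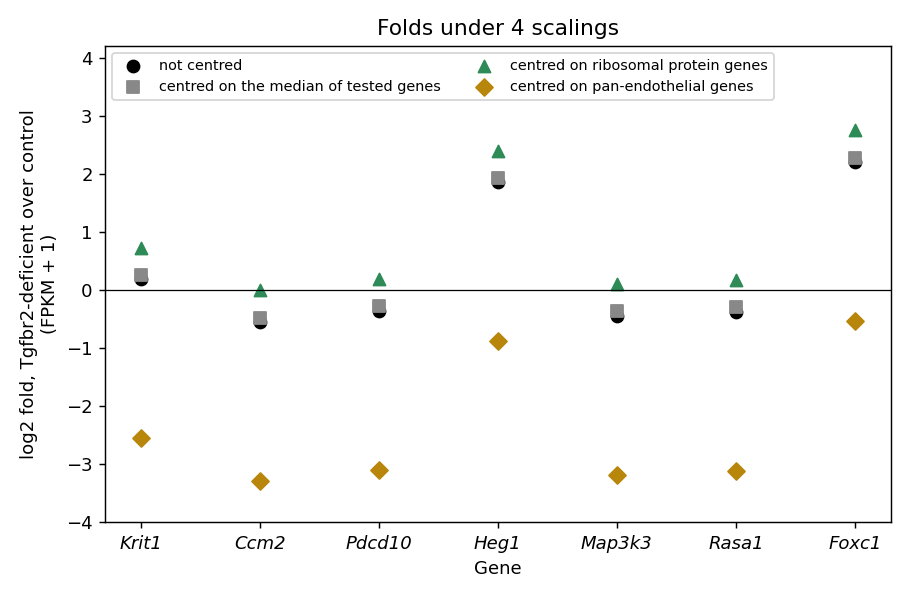
Log2 folds (FPKM + 1, Tgfbr2-deficient over control) of the 7 genes without centring and centred on the median of tested genes, of ribosomal protein genes or of pan-endothelial genes. Heg1 and Foxc1 stay above the other 5 genes under each scaling, by construction, since centring moves all genes alike, but lie below 0 when centred on pan-endothelial genes.

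For each of the 7 genes, the gene nearest in its pair of group values was found by Euclidean distance on log2(FPKM + 1). With only 2 values per gene this likeness is weak, and between 2 and 91 genes lay within a distance of 0.1. Foxc1 was nearest to Apod, which encodes apolipoprotein D, at 1.87 and 11.9 FPKM, and had 2 genes within that distance. Heg1 was nearest to Tox, a nuclear factor, at 1.35 and 7.58 FPKM, and had 9. Ccm2 was nearest to Mcm4, a subunit of the replicative helicase, at 61.1 and 41.9 FPKM. The nearest genes of Krit1, Pdcd10, Map3k3 and Rasa1 were Nr2c2, Timm44, Pold2 and Lpcat2.

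In mm10 Krit1 is on chromosome 5 from 3803165 to 3844515, Pdcd10 on chromosome 3 from 75516490 to 75556799 and Heg1 on chromosome 16 from 33684466 to 33768195. Ccm2 and Map3k3 are both on chromosome 11, from 6546887 to 6596761 and from 106084902 to 106155434. Rasa1 and Foxc1 are both on chromosome 13, from 85214699 to 85289486 and from 31806646 to 31810635. GENCODE M21 annotates all 7 as protein-coding. Foxc1 has a single exon, and the longest models of the others have 18 exons in Krit1, 10 in Ccm2, 8 in Pdcd10, 17 in Heg1, 16 in Map3k3 and 25 in Rasa1. The library kits do not mark the strand. The antisense gene Gm15657 shares 318 exonic bases with Heg1 (2.50% of its exonic bases) and Ccnh shares 12 with Rasa1, so reads in those bases cannot be told apart. The other 5 genes share no exonic base with another gene.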

How the data were processed

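RNA was measured in 7 libraries, made per the labels' protocols with the SMART-Seq v4 and Nextera XT kits. Per the submitters' processing notes reads were processed with TopHat2, Cufflinks 2.2.1 and Cuffdiff on mm10. The sources used here do not state the annotation, the library normalization or the test options. The deposited table holds, per the file headers, 1 FPKM value per gene and group, the log2 fold without pseudocount, a test score (not used) and the p-value and q-value of the authors' Cuffdiff test. It has 0 columns per library, so depth is unknown and the precision it gives cannot be stated.

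Genes with status OK and at least 1 FPKM in 1 group were counted as tested (13356), with the authors' q-values as deposited, which span all genes they tested. Folds are log2 with 1 FPKM added. The 7 genes, the lists and the tests were chosen with earlier results of these data known. The 9 pathway lists hold 101 symbols, all matched, 4 through RefSeq synonyms (Afdn as Mllt4, Arhgap35 as Grlf1, Hras as Hras1 and Stk26 as 2610018G03Rik). Another list and some genes that had been chosen are not reported here. Named are the 7 genes, for each list the 3 called genes with the largest fold, genes against their list, and others as examples chosen after their values were seen. Deposited starts were raised by 1, since 10541 of 21460 then equal RefSeq starts, against 673 as deposited. The calling code was tested on simulated data. Python 3.11.15, pandas 2.3.3 and numpy 2.4.6 were used. Alternatives tried were other FPKM filters, q under 0.01, a minimum fold, recomputed q-values, rows of several symbols left out, other pseudocounts and 3 centrings.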

Additional observations from a re-analysis of the deposited data

How the results depend on the processing

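No paired analysis was possible because the table holds 1 value per group, and for the same reason no library could be left out. Under the alternatives 110 counts of calls stayed within 1.5 times the reported count and 22 did not. With no FPKM filter, recomputed q-values or rows of several symbols left out, every count did. At a minimum of 5 FPKM the higher genes were 0 in the complex list, 4 in the RAP1 arm, 0 from Map3k3 to the KLF factors, 6 downstream of the CCM proteins and 1643 among all tested genes, and Krit1 was no longer tested. At q under 0.01 the lower genes were 0 of the 7 genes, 0 in the complex list (with 1 higher), 1 in the RAP1 arm, 1 in the RASA1 arm and 1026 among all tested genes. With a ratio of at least 2-fold they were 0 of the 7 genes, 0 in the complex list (with 1 higher), 0 in the RAP1 arm, 1 from Map3k3 to the KLF factors, 0 downstream, 2 in the TLR4 list, 0 in the RASA1 arm (with 2 higher), 1 in the small-vessel list and 368 among all tested genes. Heg1 and Foxc1 were higher under all 6 of these settings, which is no further support. The settings reuse the same deposited values, and both genes have the smallest q in the table. Both reach 5 FPKM only in the Tgfbr2-deficient group. Centring on ribosomal protein genes turned the log2 folds of Pdcd10, Map3k3 and Rasa1 to 0.19, 0.10 and 0.17, and centring on pan-endothelial genes turned those of Krit1, Heg1 and Foxc1 to −2.55, −0.89 and −0.54; both follow from the shift itself. Unknown depth limits what can be said of genes near 1 FPKM.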
